A study of Mus musculus with 8 samples.

Results

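The miR-17-92 cluster is a group of miRNAs that are cut from a single primary transcript, the non-coding RNA of the host gene Mir17hg. The 7 mature miRNAs described here (mmu-miR-17-5p, mmu-miR-17-3p, mmu-miR-18a-5p, mmu-miR-19a-3p, mmu-miR-20a-5p, mmu-miR-19b-3p and mmu-miR-92a-3p) were chosen by name as products of that transcript. The rule used no measured value, but earlier results of these data were known. These members are 7 of the 1978 mature mouse miRNAs counted in the series, and 5 of them are among the 180 miRNAs that had reads in enough libraries to be tested. The libraries came from 3A cells, a single nontumorigenic line of murine hepatocytes, and from the extracellular vesicles (EVs) that these cells released into medium with EV-depleted serum over 72 h. The cells carried a stably integrated retroviral shRNA, either a control (shCTR) or one against the RNA-binding protein PCBP2 (shPCBP2), and both kinds had been selected with 2 µg/mL puromycin. This gave 4 groups, the shCTR cells and the shPCBP2 cells and the EVs of each, with 2 replicates per group that the study calls biological. The design asks whether PCBP2 affects how miRNAs are divided between cells and EVs. PCBP2 itself was not measured by these small RNA libraries, so the silencing could not be checked here.

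Members of this cluster promote cell proliferation and survival and are induced by MYC in many tissues, the regenerating and the transformed liver included. Each hairpin of the primary transcript is cut out by Drosha and then by Dicer, which leaves a duplex of a 5p and a 3p arm. One arm, the guide, is usually kept in an Argonaute protein and recognises target mRNAs through its seed, bases 2 to 8, whereas the other arm, the passenger, is usually degraded. Members made only from this transcript share its transcription, and can still differ in processing, turnover and release.

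The 6 hairpins lie within 836 bases of the plus strand, at chr14:115043671-115044506 (GRCm38), all in exon 2 of Mir17hg, which GENCODE M21 annotates as a lincRNA. The mature sequences are shown because the members group by seed, which is given in capitals (RefSeq, GRCm38.p6).
mmu-miR-17-5p: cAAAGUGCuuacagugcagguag
mmu-miR-20a-5p: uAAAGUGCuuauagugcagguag
mmu-miR-18a-5p: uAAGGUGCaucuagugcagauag
mmu-miR-19a-3p: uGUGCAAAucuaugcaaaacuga
mmu-miR-19b-3p: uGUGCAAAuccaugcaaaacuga
mmu-miR-92a-3p: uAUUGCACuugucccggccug
mmu-miR-17-3p: aCUGCAGUgagggcacuuguag
miR-17-5p and miR-20a-5p share a seed and differ at 2 bases, and miR-19a-3p and miR-19b-3p share another and differ at 1 base. miR-18a-5p, miR-92a-3p and miR-17-3p each have a seed that no other member has. miR-17-3p is the passenger arm of the hairpin that gives miR-17-5p, and the whole Mir17 hairpin is printed here with both arms in capitals because a result below turns on the 2 arms.
Mir17: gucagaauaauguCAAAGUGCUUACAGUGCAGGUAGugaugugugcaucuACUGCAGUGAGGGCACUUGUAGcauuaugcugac

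Some of these sequences cannot be assigned to the cluster alone. miR-19b-3p and miR-92a-3p are also produced, with identical mature sequences, by hairpins on chromosome X (Mir19b-2 and Mir92-2). The 5p arms of those X-linked copies, miR-19b-2-5p and miR-92a-2-5p, had 0 reads in all 8 libraries, whereas the 5p arm of the Mir92-1 hairpin of the cluster had 670 to 1277 reads in the cell libraries. miR-17-5p differs by 1 base from miR-106a-5p of the X-linked paralog cluster, which was assigned 108 to 364 reads in cells and 1 to 3 in EVs. How many reads were exchanged between them was not tested.

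Levels are given as raw reads and as reads per 1000000 reads of cel-miR-39, a nematode miRNA added to every sample before library preparation (spike-in RPM). Cell libraries held 8745848 to 12732173 mouse miRNA reads and EV libraries 503070 to 687592, beside 15734400 to 17821600 and 26033300 to 37548200 spike-in reads. In the EV libraries 183 to 202 miRNAs had reads, and few of them had low counts. The 5th percentile of the counts above 0 was 36.8 to 71.6 reads in EVs and 3 to 12 reads in cells. From these libraries, fewer vesicles and less RNA per vesicle cannot be told apart. The study counted vesicles in a separate assay, which was not analysed here.

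The cluster was among the abundant miRNAs of both compartments. Its 7 members together took 3.52 to 4.64% of all mouse miRNA reads in the 4 cell libraries and 3.99 to 4.22% in the 4 EV libraries, and these ranges overlapped. Against the spike-in, the summed cluster was at 31149 ± 4746 spike-in RPM in the shCTR cells, 21444 ± 4941 in the shPCBP2 cells, 946 ± 139 in the shCTR EVs and 681 ± 9.01 in the shPCBP2 EVs (mean ± SD, n = 2 each). In cells the order of the members by reads was miR-17-5p, miR-20a-5p, miR-18a-5p, miR-92a-3p, miR-17-3p, miR-19b-3p and miR-19a-3p in every library. Reads of different miRNAs also depend on how well each ligates to the adapters, so this order describes reads and not molecules.

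**Figure D1:**
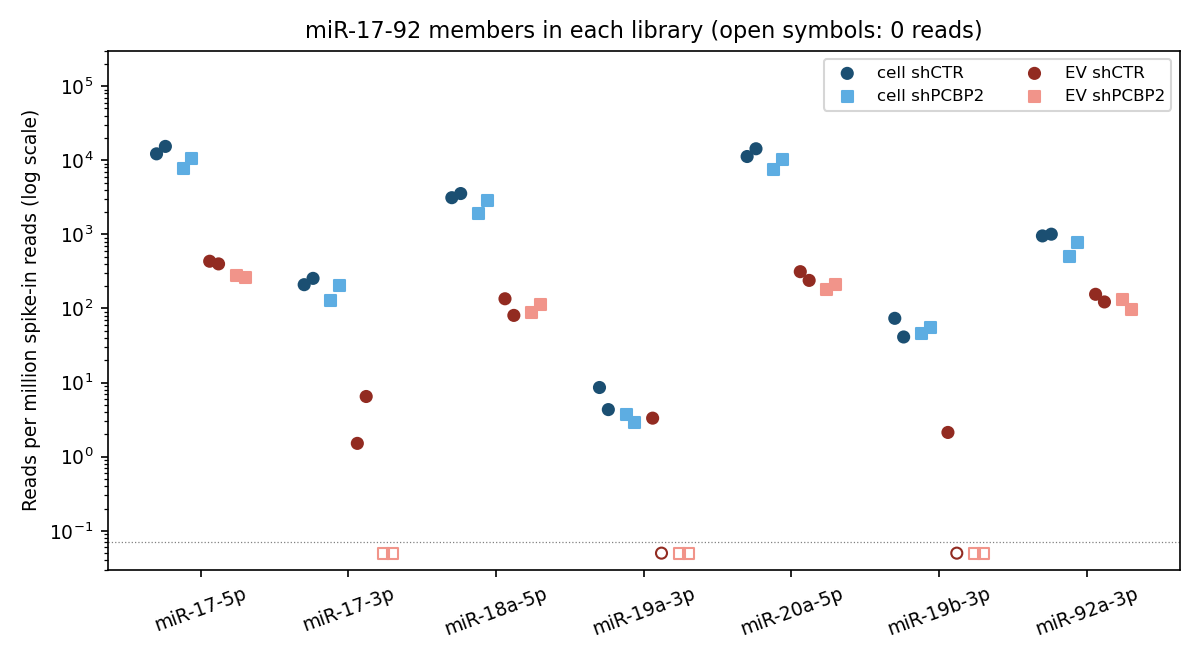
Spike-in RPM (log axis) of the 7 members in each of the 8 libraries, with circles for shCTR and squares for shPCBP2, and open symbols below the dotted line for libraries with 0 reads. The EV symbols of the 4 abundant guide strands lie far below those of cells, with the smallest gap at miR-92a-3p, and miR-17-3p has no reads in either shPCBP2 EV library.

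miR-17-5p, which represses cell cycle inhibitors among other targets, had 217387 and 241756 reads in the shCTR cells and 138012 and 190919 in the shPCBP2 cells. It had 12043 and 10394 reads in the shCTR EVs and 10320 and 8010 in the shPCBP2 EVs. Its seed relative miR-20a-5p had 200066 and 224711 reads in the shCTR cells, 132812 and 184177 in the shPCBP2 cells, 8709 and 6226 in the shCTR EVs and 6675 and 6497 in the shPCBP2 EVs. Both were thus nearly equal in cells, whereas miR-20a-5p was the lower of them in every EV library. miR-18a-5p had 55680 and 55897 reads in the shCTR cells, 34040 and 50790 in the shPCBP2 cells, 3754 and 2099 in the shCTR EVs and 3350 and 3489 in the shPCBP2 EVs. The spread between the shCTR EV replicates was therefore wider for miR-18a-5p than for miR-17-5p. miR-92a-3p, which is known to restrain blood vessel growth and is abundant in red blood cells, had 16979 and 15819 reads in the shCTR cells and 8764 and 13784 in the shPCBP2 cells. It had 4311 and 3189 reads in the shCTR EVs and 4990 and 2909 in the shPCBP2 EVs. In reads it was the least abundant of these 4 guide strands in cells, but it exceeded miR-18a-5p in 3 of the 4 EV libraries.

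On the spike-in scale all 5 tested members were lower in EVs than in cells under both shRNAs. In shCTR the log2 EV/cell ratio was −5.05 ± 0.24 (SE) for miR-17-5p (adjusted p = 7.87e-06, edgeR quasi-likelihood test), and it was −5.53 ± 0.30 for miR-20a-5p (adjusted p = 9.19e-06, edgeR). It was −4.95 ± 0.39 for miR-18a-5p (adjusted p = 4.76e-05, edgeR) and −5.86 ± 1.03 for miR-17-3p (adjusted p = 0.00421, edgeR). miR-92a-3p had the ratio closest to 0, at −2.82 ± 0.38 (adjusted p = 0.000645, edgeR). In shPCBP2 the log2 EV/cell ratios were −5.11 for miR-17-5p, −5.51 for miR-20a-5p, −4.55 for miR-18a-5p and −2.47 for miR-92a-3p. All 5 tested members again passed the test. For miR-17-3p that call rests on 0 reads in both shPCBP2 EV libraries. It had met the filter only through its reads in the shCTR EVs, so its call there is no support for a difference. Such a call is common in these data, since 59.4% of the 180 tested miRNAs were lower in EVs in shCTR and 60% in shPCBP2. The median log2 EV/cell ratio was −4.93 over all tested miRNAs in shCTR and −4.90 in shPCBP2, close to that of miR-17-5p.

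The spike-in scale follows the amount of miRNA in each preparation, and other scalings ask how a member stood among the miRNAs of its own compartment. With trimmed-mean (TMM) factors the median of all tested miRNAs moved to −0.17 in shCTR and −0.34 in shPCBP2. miR-92a-3p was then higher in EVs, by 1.95 in shCTR and 2.09 in shPCBP2 on the log2 scale, and it stayed higher with median-of-ratios factors (1.95 and 2.29) and with the total of mouse reads (2.16 and 2.73). miR-18a-5p, by contrast, lay near 0 in shCTR, at 0.02 with the total of mouse reads, but at 0.64 in shPCBP2 with the same scaling, where it was called higher in EVs (adjusted p = 0.0442, edgeR). miR-20a-5p stayed below 0 under each of these scalings, with adjusted p-values of at most 0.0203 in shCTR and 0.0961 in shPCBP2 over all alternatives (edgeR, DESeq2 and limma).

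**Figure D2:**
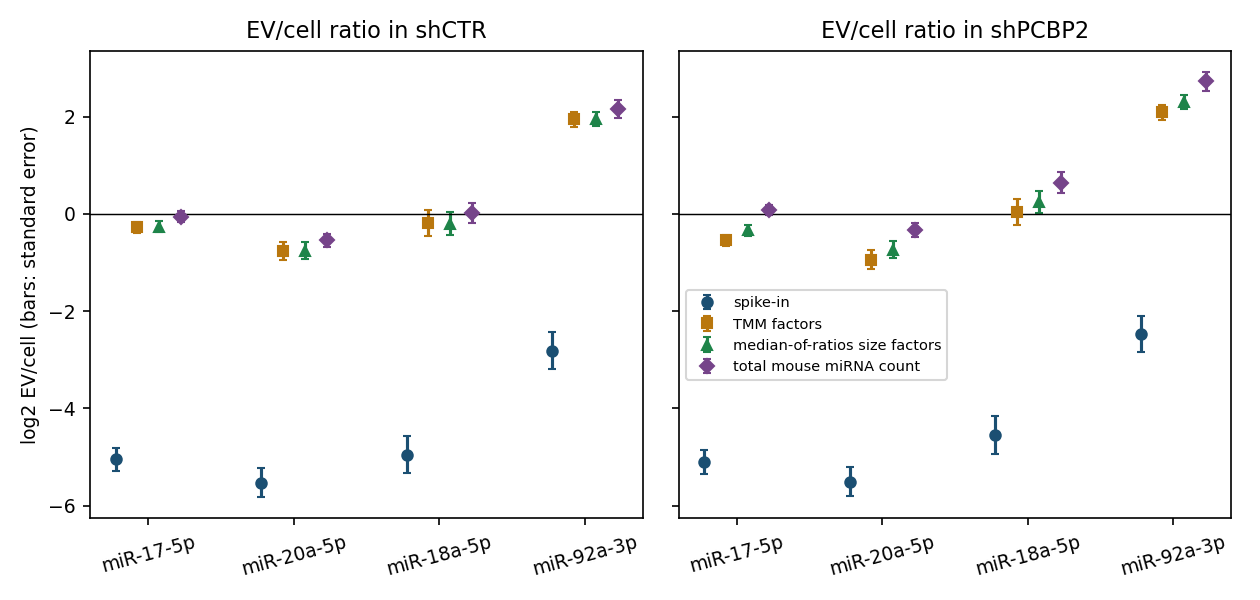
Log2 EV/cell ratio of the 4 tested guide strands (y axis; bars, standard error) in shCTR and shPCBP2 under 4 scalings of the libraries. With the spike-in all lie below 0, while under the other 3 scalings miR-92a-3p lies at 1.95 or above and miR-20a-5p stays below 0.

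Proportions between members of the same library need no scaling, and they separated miR-92a-3p and miR-20a-5p from miR-17-5p. In cells miR-92a-3p had 7.81 and 6.54% as many reads as miR-17-5p in shCTR and 6.35 and 7.22% in shPCBP2. In EVs it had 35.8 and 30.7% in shCTR and 48.4 and 36.3% in shPCBP2, so that every EV library lay above every cell library. The ratio of miR-92a-3p to miR-17-5p was 5.36-fold higher in EVs, a difference of 2.42 on the log2 scale between −1.42 ± 0.27 in EVs and −3.84 ± 0.14 in cells (mean ± SD, n = 4 each, exact permutation test, two-sided p = 0.0286, the smallest that 4 against 4 libraries allow). Permuted within each shRNA, the same difference gave p = 0.0556 (exact permutation test), again the smallest possible. Accordingly miR-92a-3p made up 2.77 to 3.43% of the cluster's reads in cells and 13.9 to 19.7% in EVs.

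miR-20a-5p moved the other way. It had 92.03 and 92.95% as many reads as miR-17-5p in the shCTR cells, 96.2 and 96.5% in the shPCBP2 cells, 72.3 and 59.9% in the shCTR EVs and 64.7 and 81.1% in the shPCBP2 EVs. The EV libraries did not overlap the cell libraries, and the ratio was 0.731 times that in cells, or −0.45 on the log2 scale (exact permutation test, two-sided p = 0.0286, n = 4 each). This p became 0.0571 when any 1 cell library was left out (exact permutation test), and 0.0556 within each shRNA. The reads of miR-20a-5p and miR-17-5p, which share a seed and differ at 2 bases, thus stood in different ratios in cell and EV libraries. miR-18a-5p stood at 23.1 to 26.6% of miR-17-5p in cells and 20.2 to 43.6% in EVs, and these ranges overlapped (log2 difference 0.30, exact permutation test, two-sided p = 0.286, n = 4 each). That p was 0.0286 without shCTR EV replicate 2, with a difference of 0.50 (exact permutation test). For miR-17-3p, whose counts of 0 in the shPCBP2 EVs were set to 3, the log2 difference was −3.45 (exact permutation test, two-sided p = 0.0571, n = 4 each). That value depends on this setting. Each of the 6 ratios to miR-17-5p had 1 main test besides the alternatives, and all these p-values are unadjusted.

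**Figure D3:**
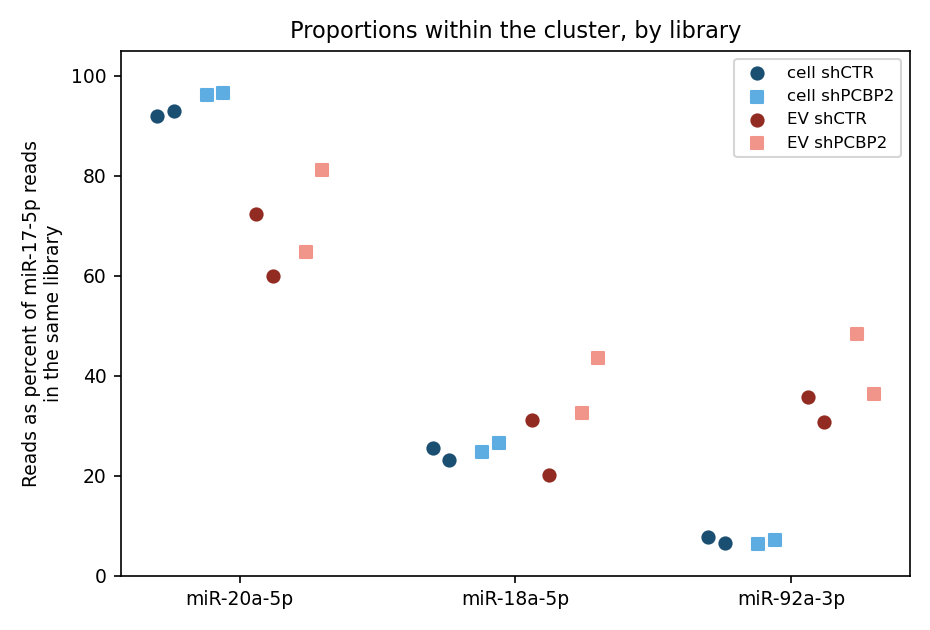
Reads of miR-20a-5p, miR-18a-5p and miR-92a-3p as a percent of the miR-17-5p reads of the same library (y axis), 1 symbol for each of the 8 libraries. For miR-92a-3p the EV symbols lie between 30.7 and 48.4% and the cell symbols between 6.35 and 7.81%, for miR-20a-5p the EV symbols lie below all cell symbols, and for miR-18a-5p they overlap.

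A change of this kind was not rare among miRNAs. The share of mouse miRNA reads was higher in every EV library than in every cell library for 30.6% of the tested miRNAs, miR-92a-3p among them, and lower in every EV library for 24.4%, miR-20a-5p among them. miRNAs typical of blood also took a larger part of the EV reads. The red blood cell and serum list (miR-486a-5p, miR-486b-5p, miR-451a, miR-144-3p and miR-144-5p) held 0.00135 to 0.00317% of mouse miRNA reads in cells, with 2 of its 5 members detected (the near-identical miR-486a-5p and miR-486b-5p, whose reads cannot be told apart) and miR-451a at 0, and 9.63 to 11.6% in EVs with 5 of 5 detected. The leukocyte list (miR-142a-5p, miR-142a-3p, miR-150-5p and miR-223-3p) held 0.000111 to 0.000707% in cells, with 2 of 4 detected, and 1.37 to 1.70% in EVs with 4 of 4. The platelet and endothelium list (miR-126a-3p and miR-126a-5p) held 0.0174 to 0.0228% in cells and 0.489 to 0.881% in EVs. Of the tested members, 2 of 2 of the red blood cell list, 2 of 2 of the leukocyte list and 0 of 2 of the platelet list were higher in EVs under each shRNA on the spike-in scale. The part of such RNA in the miR-92a-3p and miR-20a-5p results was not tested. The hepatocyte list (miR-122-5p, miR-122-3p, miR-192-5p, miR-194-5p, miR-101a-3p and miR-148a-3p) held 2.41 to 2.86% in cells and 1.01 to 1.32% in EVs with 5 of 6 members detected in each, and 2 of the 5 tested were lower in EVs under each shRNA (0 higher in shCTR, 1 in shPCBP2). Most of these reads were miR-194-5p, at 2.29 to 2.69% in cells and 0.691 to 0.882% in EVs. On the log2 scale the list's median EV/cell ratio was 1.02 in shCTR and −0.11 in shPCBP2, and miR-122-5p, miR-101a-3p and miR-148a-3p each had a higher share of reads in every EV library than in any cell library. The best known marker, miR-122-5p, had only 356 to 485 reads in cells against 795 to 2327 in EVs, and miR-122-3p had 0 in all 8 libraries.

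The relatives that share a seed with members give values to set beside them, and no difference between them was tested. Of the 6 mouse miRNAs with the seed AUUGCAC, miR-25-3p of the paralog cluster miR-106b-25 had the most reads, 54803 to 91876 in cells and 7262 to 8124 in EVs. The log2 EV/cell ratio of miR-25-3p was −4.31 in shCTR and −4.02 in shPCBP2, against −2.82 and −2.47 for miR-92a-3p. The share of mouse miRNA reads was also higher in EVs for miR-25-3p, at 1.06 to 1.44% against 0.602 to 0.757% in cells. miR-92b-3p, which has this seed too, had 13 to 38 reads in cells and 0 to 257 in EVs. Its log2 EV/cell ratios were −0.31 in shCTR and 1.95 in shPCBP2, and neither passed the test (adjusted p = 0.889 and 0.436, edgeR). miR-92a-3p supplied 13.8 to 15.6% of the reads with this seed in cells and 27.9 to 37.8% in EVs. In the AAAGUGC family, miR-17-5p and miR-20a-5p supplied 48.0 to 51.5% of the reads in cells and 58.9 to 64.4% in EVs, most of the rest being miR-93-5p, whose log2 EV/cell ratio was −6.05 in shCTR. Over the list of 18 paralogs and seed relatives, 12 had reads and 8 were tested, and 4 of these were lower in EVs under each shRNA with none higher. None of the 8 passed the test for an effect of PCBP2 silencing in cells, in EVs or on the EV/cell ratio.

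PCBP2 silencing did not detectably change how the 4 guide strands were divided between EVs and cells. The change of the log2 EV/cell ratio, shPCBP2 against shCTR, was −0.06 for miR-17-5p (95% interval −0.76 to 0.64) and 0.02 for miR-20a-5p (−0.82 to 0.86). It was 0.40 for miR-18a-5p (−0.74 to 1.54) and 0.34 for miR-92a-3p (−0.88 to 1.56). The adjusted p was 0.992 for each of the 4 (edgeR), and none passed under any alternative tried. The intervals leave room for changes of either sign, so equal ratios were not shown. Over all tested miRNAs 2.22% passed this test, and of the 5 tested members 0 did (1 had an unadjusted p under 0.05, against 17 of all 180). That member was miR-17-3p, described below, with an adjusted p of 0.0570 (edgeR). DESeq2 gave an adjusted p of 0.000136 and limma 0.217. miR-17-3p entered the test only through its reads in the shCTR EVs, so these values are no support for a change.

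Within each compartment, none of the 4 guide strands passed the test for silencing on the spike-in scale. In cells, miR-17-5p, miR-20a-5p, miR-18a-5p and miR-92a-3p had log2 changes of −0.57, −0.51, −0.48 and −0.62. None passed the test, nor did any of the 180 miRNAs (0%, edgeR; unadjusted p under 0.05 for 1 member, miR-17-5p, and for 25 of all), and the median of all tested miRNAs was −0.49. With TMM factors that median was −0.02. DESeq2 and limma also called 0 members in cells, with adjusted p-values for miR-17-5p of 0.0578 and 0.0712.

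In EVs, miR-17-5p was at 434 and 399 spike-in RPM in shCTR and at 275 and 263 in shPCBP2. The log2 change of −0.63 ± 0.20 (SE) did not pass the adjusted test (adjusted p = 0.172, edgeR). DESeq2 gave an adjusted p of 0.0240 for it, the only 1 of 18 alternatives under the threshold. miR-20a-5p was at 314 and 239 in the shCTR EVs and 178 and 214 in the shPCBP2 EVs (log2 change −0.50, adjusted p = 0.376, edgeR). miR-18a-5p and miR-92a-3p had log2 changes of −0.08 and −0.28 in EVs. The median change of all tested miRNAs in EVs was −0.54, in the range of the members. Of all tested miRNAs 7.22% passed this test. Of the 5 tested members 1 did, miR-17-3p, which had entered the test only through its reads in the shCTR EVs, so its call is no support for a difference.

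**Figure D4:**
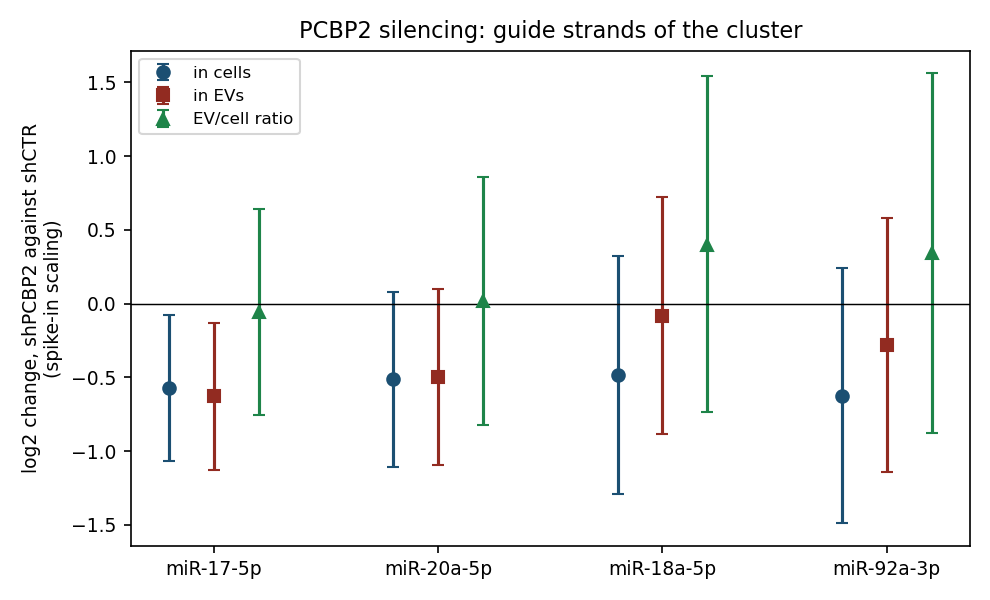
Log2 change of the 4 tested guide strands in shPCBP2 against shCTR (y axis, spike-in scaling) in cells, in EVs and for the EV/cell ratio; bars are 95% intervals of the edgeR fit. The EV/cell changes lie between −0.06 and 0.40 with intervals that span 0.

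miR-17-3p, the passenger arm of the Mir17 hairpin printed above, is described here by its reads. It had 3731 and 4007 reads in the shCTR cells, 2230 and 3640 in the shPCBP2 cells, 42 and 169 in the shCTR EVs and 0 in both shPCBP2 EV libraries. In cells the log2 change was −0.49 (adjusted p = 0.938, edgeR), whereas in EVs the groups did not overlap. With 3 reads set as the floor of each library, miR-17-3p was 44.8-fold lower in the shPCBP2 EVs than in the shCTR EVs. Few counts above 0 were that low in the shPCBP2 EVs, where their 5th percentile was 71.6 and 36.8 reads. The folds given here hold only at that floor and would be smaller at a higher one. The filter asked for reads in 2 EV libraries, and miR-17-3p met it only through the group in which it is high, so the p-values that follow are descriptions of the fit. The adjusted p was 0.0211 (edgeR). At that floor the fold was 16.9 without shCTR EV replicate 2 and 72.7 without shCTR EV replicate 1. In 11 of 17 alternatives the adjusted p was under 0.05, within a range from 8.03e-07 (DESeq2) to 0.268 (a fit to the EV libraries alone), while limma gave 0.114 and the replicate block 0.0723. The call was also lost without either shCTR cell library (adjusted p = 0.0958 and 0.0973, edgeR). At the same floor the EV level relative to cells was 31.9-fold lower in shPCBP2 than in shCTR. The test of this change gave an adjusted p of 0.0570 (edgeR; 0.000136 to 0.350 over 16 alternatives, 5 of them under 0.05). Without shCTR EV replicate 2 the fold at that floor was 12.1, and without replicate 1 it was 51.8.

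The share of each arm in the reads of the hairpin needs no scaling. miR-17-3p made up 1.69 and 1.63% of the reads of both arms in the shCTR cells and 1.59 and 1.87% in the shPCBP2 cells. In EVs it made up 0.348% (95% Wilson interval 0.257 to 0.469) and 1.60% (1.38 to 1.86) in shCTR. The intervals of these 2 replicates did not overlap, and replicate 2 was at the level of cells. In the shPCBP2 EVs miR-17-3p was 0 of 10320 and 0 of 8010 reads, which at a floor of 3 reads allows a share of up to 0.0291 and 0.0375%. Had the arm stood in the proportion to miR-17-5p found in cells of the same shRNA, 184 and 143 reads would have fallen in the shPCBP2 EV libraries and 203 and 175 in the shCTR EVs. The Wilson intervals cover counting error only and take each read as independent, which was not tested. Among all tested miRNAs, 2.78% had reads in both shCTR EV libraries and none in either shPCBP2 EV library, and 1.67% showed the opposite, so absence from 1 pair of EV libraries occurred in both directions. The 42 reads of shCTR EV replicate 1 lay below the 5th percentile of the counts above 0 in that library, 47.1. With 2 libraries against 2, an exact permutation test of the share could not go below p = 0.333, and none was run.

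**Figure D5:**
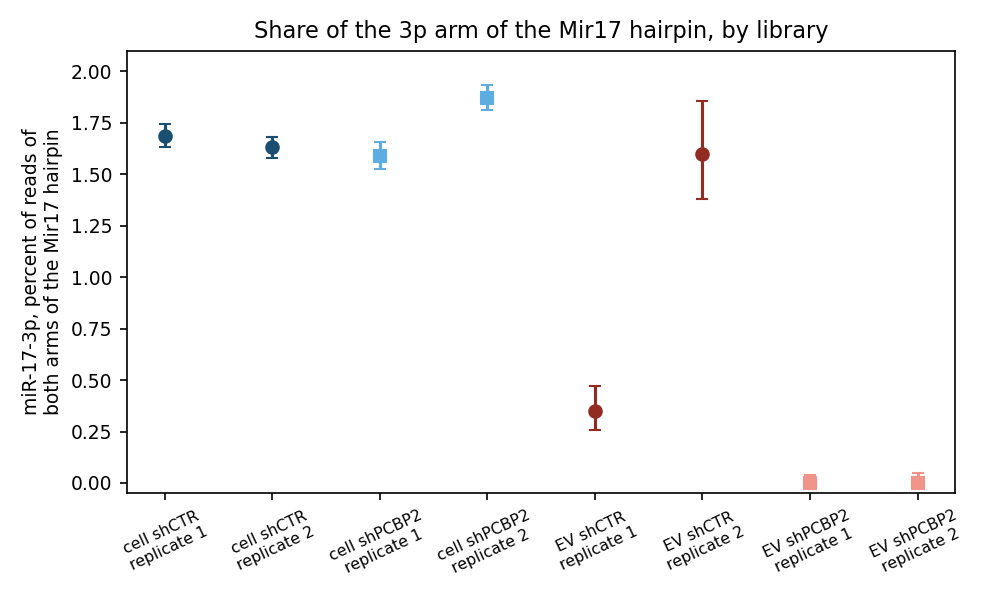
miR-17-3p as a percent of the reads of both arms of the Mir17 hairpin (y axis) in each of the 8 libraries; bars are 95% Wilson intervals, which cover counting error only. The cell libraries lie between 1.59 and 1.87%, the shCTR EV libraries at 0.348 and 1.60%, and both shPCBP2 EV libraries at 0.

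The other passenger arms of the transcript were seldom detected in EVs of either kind. Of the 5 on the list, 4 had reads and 0 could be tested, since none had reads in more than 1 EV library. miR-92a-1-5p, the passenger of miR-92a-3p, was the most frequent in proportion, at 6.08 to 7.10% of the reads of both arms in cells (1277 and 1118 reads in shCTR, 670 and 893 in shPCBP2). It had 0 reads in all 4 EV libraries, which at a floor of 3 reads allows up to 0.0601 to 0.103%. At its proportion to miR-17-5p in cells, 38.1 to 62.8 reads would have fallen there. That range is close to the 5th percentile of the counts above 0 in these libraries (36.8 to 71.6). While the guide of the Mir92-1 hairpin was relatively more frequent in EVs than in cells, its passenger was thus not detected in them. miR-20a-3p had 387 to 634 reads in cells and 122, 0, 0 and 0 in EVs, the 122 being in shCTR EV replicate 1. In that library it made up 1.38% of the reads of both arms, against 0.18 to 0.34% in cells. At its proportion to miR-17-5p in cells, 25.9 reads would have fallen in that library, so there it went the other way. miR-18a-3p had 46 to 227 reads in cells and miR-19b-1-5p 18 to 33, both with 0 in all EV libraries, and miR-19a-5p had 0 in every library. Together with miR-17-3p, passenger arms made up 1.06 to 1.19% of all reads of the transcript in cells, 0.563 and 0.766% in the shCTR EVs and 0 of 25335 and 0 of 20905 reads in the shPCBP2 EVs.

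The miR-19 pair was scarce in these libraries. miR-19b-3p had 1312 and 649 reads in the shCTR cells and 813 and 994 in the shPCBP2 cells, and miR-19a-3p had 153 and 68 and then 66 and 52. In EVs both had reads in 1 library only, shCTR EV replicate 1, with 59 for miR-19b-3p and 92 for miR-19a-3p. This was also the only EV library with miR-20a-3p. Neither miR-19 could enter the test across miRNAs. At the proportion to miR-17-5p found in cells, 2.87 to 5.80 reads of miR-19a-3p would have fallen in each EV library, so a difference was not detectable at this depth for the 3 libraries at 0. In shCTR EV replicate 1 miR-19a-3p stood at 0.764% of miR-17-5p, against 0.027 to 0.070% in cells. Its ratio to miR-17-5p differed by 0.80 on the log2 scale between EVs and cells (p = 0.743, exact permutation test, two-sided, n = 4 each, counts under 3 set to 3). For miR-19b-3p 44.0 to 56.7 reads would have fallen in each EV library at the proportion in cells, again close to that 5th percentile. Its ratio to miR-17-5p in EVs against cells gave p = 0.0571 (exact permutation test, two-sided, n = 4 each, counts under 3 set to 3). Without shCTR EV replicate 1, the only EV library with miR-19b-3p reads, that p was 0.0286 (exact permutation test). All EV counts left were then 0 and set to 3, so this p follows from the floor and is no support. In that replicate miR-19b-3p stood at 0.49% of miR-17-5p, within the 0.27 to 0.60% of cells. With a floor of 3 reads, miR-19b-3p was 570.5-fold and miR-19a-3p 37.3-fold lower in the shPCBP2 EVs than in the shPCBP2 cells on the spike-in scale. These folds hold only at that floor, which lies below the 5th percentile of the counts above 0 in each EV library. On that scale the median miRNA was also far lower in EVs.

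Over the 8 libraries the miRNAs outside the cluster with the profile most like that of the summed cluster were miR-23a-3p (root-mean-square difference of centred log2 spike-in-relative levels 0.116), let-7a-5p (0.157), miR-652-3p (0.209), miR-221-3p (0.210) and miR-151-5p (0.233), among 109 ranked. For miR-17-5p alone they were miR-23a-3p (0.164), let-7a-5p (0.207), miR-652-3p (0.252), miR-31-5p (0.260) and miR-151-5p (0.261). For miR-92a-3p they were miR-139-5p (0.220), miR-125a-5p (0.264), miR-877-5p (0.303), miR-671-5p (0.377) and miR-342-3p (0.408). miR-92a-3p itself ranked 85 of 112 by likeness to miR-17-5p, while miR-20a-5p ranked 4 and miR-18a-5p 13. These profiles are dominated by the gap between cells and EVs, which all miRNAs of a library share in part.

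The study describes a short sequence, the CELL motif, which takes part in the binding of PCBP2 to miRNAs together with the hEXO motif bound by the protein SYNCRIP. The letters AUUG or AUUA were searched on the mature strand as the core of the CELL motif, and the hEXO motif was not searched, so the match says nothing of PCBP2 binding. Of the 7 members 1 holds AUUG, miR-92a-3p from base 2, inside the seed shown above, and none holds AUUA. AUUG occurs in 6.79% of the 1679 mature mouse miRNAs of RefSeq and in 16.03% of the 156 tested miRNAs with a sequence.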

How the data were processed

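Small RNA was sequenced in 8 libraries. After adapter removal by the authors, forward reads were mapped to miRBase hairpins using mirPRo and Novoalign (versions not used here). The table they deposited holds raw counts per mature miRNA without normalization, in which the largest counts, the spike-in's among them, are rounded. All sample columns were used. Groups and replicate numbers follow the sample titles. The descriptions number some shPCBP2 replicates differently.

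Testing was restricted to the 180 miRNAs detected in 2 or more libraries of cells and 2 or more of EVs, using edgeR 4.0.16 (quasi-likelihood, library sizes proportional to cel-miR-39-3p reads, 4 group means, Benjamini-Hochberg over all tested miRNAs, threshold 0.05). Standard errors were derived from the F statistic and are approximate, and intervals use 6.10 degrees of freedom. Ratios within a library were compared by exact permutation. A fold against 0 reads was computed with 3 reads as the floor of each library and holds only at that floor. Alternatives used TMM, median-of-ratios or total-count scaling, other filters, DESeq2 1.42.0, limma 3.58.1 voom, a replicate block, only the libraries compared, and each library left out. Scripts were tested on simulated data. R 4.3.3, Python 3.11.15 and scipy 1.17.1 were used.

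The 7 members, the lists (passenger arms, paralogs and seed relatives, and 4 marker lists) and the tests were chosen with earlier results of these data known. All members are named. Nearest profiles are the 5 miRNAs outside the cluster, each with 10 or more counts in all libraries, that had the smallest root-mean-square difference. Sequences were matched by name in RefSeq for 7 of 7 members.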

Additional observations from a re-analysis of the deposited data

How the results depend on the processing

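With 2 replicates in each group and few low counts in EVs, small changes of the members could not be resolved. Values against 0 reads hold only at the floor of 3 reads. Another scaling changed most. Of the 5 tested members, 2 were called for EV/cell in shCTR with TMM, median-of-ratios or total-count scaling. In shPCBP2 3 were called with median-of-ratios or total-count scaling, among them miR-17-3p with its 0 EV reads. The log2 EV/cell ratio then turned positive for miR-92a-3p, to 1.95 (TMM), 1.95 (median-of-ratios) and 2.16 (total) in shCTR and to 2.09, 2.29 and 2.73 in shPCBP2. For miR-18a-5p it was 0.016 (total) in shCTR and 0.034, 0.24 and 0.64 in shPCBP2, and for miR-17-5p 0.078 (total) in shPCBP2. shPCBP2 against shCTR in EVs turned to 0.22, 0.35 and 0.42 for miR-18a-5p and, with the last 2 scalings, to 0.10 and 0.20 for miR-92a-3p. The cause was not tested beyond the scaling itself.

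For the change of the EV/cell ratio, 1 member (miR-17-3p) was called with TMM, without the filter and with DESeq2, and 0 to 1 with a library left out. miR-17-5p changed sign with total-count scaling (0.13) and ranged from −0.27 to 0.19 with a library left out. miR-20a-5p changed sign with TMM (−0.18) and ranged from −0.19 to 0.26. In EVs, 0 members were called with at least 10 counts in every library, where miR-17-3p is not tested, with voom, with only the EV libraries and with the crossed block, 2 with DESeq2, and 0 to 1 with a library left out. miR-18a-5p in EVs ranged from −0.41 to 0.34.

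For ratios to miR-17-5p, miR-18a-5p against miR-20a-5p as the reference gave 0.75 (exact permutation p = 0.0286). Within each shRNA, miR-20a-5p (−0.45) and miR-92a-3p (2.42) gave p = 0.0556 (exact permutation). miR-19a-3p turned to −0.38 with counts of 0 set to 1. With a library left out, the log2 differences ranged from −4.57 to −2.63 for miR-17-3p, 0.13 to 0.50 for miR-18a-5p, −0.34 to 1.23 for miR-19a-3p, −3.90 to −2.54 for miR-19b-3p and −0.53 to −0.38 for miR-20a-5p.

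The replicate block was tried because titles share numbers. The numbers were not taken as pairs. Same-numbered deviations correlated at −0.51 between cell groups and at −0.09 to 0.04 otherwise. With 2 libraries in each group this check cannot show whether samples were paired. With the replicate block, 0 members were called in EVs (miR-17-3p adjusted p = 0.0723, edgeR), miR-20a-5p's change of the EV/cell ratio was −0.0002, and sign flips of the 4 pairs gave p = 0.125 (exact permutation, the smallest possible) for miR-20a-5p (−0.45) and miR-92a-3p (2.42). A crossed block with the cell shPCBP2 numbers swapped, chosen after seeing the data, called 5 and 5 members for EV/cell and 0 in the other comparisons.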
